A study of Homo sapiens with 15 samples.

Results

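Transcripts of the TMEM genes were followed through total RNA and through RNA that co-purified with 2 isoforms of the RNA helicase UPF1. The members were chosen by their symbol alone, TMEM followed by a digit, and 146 of the 12261 genes in the deposited table carried such a symbol. No measured value entered that choice beyond the floor of the table itself, but the family was proposed with results of these data known, so its counts are given as a description. TMEM is a placeholder name, given to genes predicted to encode a membrane-spanning protein before their function was known. The members therefore form no pathway and need not be related in sequence. Their proteins sit in the endoplasmic reticulum (ER), the Golgi apparatus, lysosomes, mitochondria, the ciliary transition zone, the nuclear envelope and the cell surface. Many have since been renamed: 145 matched a current symbol by Ensembl ID, and for 22 of these it differed from the one in the table, as for TMEM189 (now PEDS1), TMEM173 (STING1) and TMEM66 (SARAF). Symbols below are those of the table. RefSeq types were found for 141 members, of which 138 were protein-coding. TMEM161B-AS1 and TMEM99 (now KRT10-AS1) are long noncoding RNAs, and TMEM198B is a transcribed pseudogene. TMEM256-PLSCR3 carries a readthrough name but the Ensembl ID of the protein-coding gene PLSCR3, so its values are those of that gene.

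UPF1 unwinds RNA and is required for nonsense-mediated decay (NMD), which removes transcripts whose translation ends in an unfavourable context. Human cells make UPF1 in 2 splice forms that differ in the length of a regulatory loop in the helicase domain. Isoform 1 carries the longer loop. Messenger RNAs for membrane proteins are mostly translated at the ER surface, where their products are inserted into the membrane.

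The cells were HEK-293 Trex, derived from an established line of human embryonic kidney origin, in which doxycycline switches on a transgene. The 15 libraries fell into 5 groups of 3. Total RNA came from lines with CLIP-UPF1 isoform 1 (UPF1-1), CLIP-UPF1 isoform 2 (UPF1-2) or GFP as the transgene, and purified RNA (IP) came from the UPF1-1 and UPF1-2 lines. All cells received doxycycline at 200 ng/mL, and the cells' own UPF1 was present throughout. Each protein was expressed in a line of its own, so a difference between lines and an effect of the protein cannot be told apart. No purification from GFP cells was used here, so recovery was measured against total RNA only. Nothing in the labels says that the 3 libraries of a group came from separate cultures, so p-values reflect only how far these samples scatter, which may be technical.

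The UPF1 transcript stood at 5.20 ± 2.93 TPM (transcript abundance scaled for length and library total; SD, n = 3) in GFP cells, 129 ± 49.8 with UPF1-1 and 104 ± 57.9 with UPF1-2. Of 7 markers of HEK-293 cells, 5 were in the table, with VIM at 142 ± 19.2 TPM in GFP total RNA, and none of 10 markers of other cell types was. The listed transcripts held 12.2% to 19% of all TPM in total RNA libraries and 44.7% to 69.9% in IP libraries. Replicate 3 was the highest of its group in all 5 groups. After group means were removed, libraries numbered 3 correlated with those numbered 1 or 2 at r of -0.892 to -0.681 across genes. Every comparison below was therefore made within replicate numbers and with library medians set equal. Unless stated otherwise, differences are log2 of TPM plus 0.5, which understates those of low genes, and adjusted p-values are from limma over all genes tested. The TPM of single libraries are as deposited, before medians were set equal.

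The members were moderately expressed. In GFP total RNA 10 of the 146 had a mean of at least 10 TPM, 74 lay from 1 to 10 TPM and 62 were under 1 TPM. Their median was 1.32 TPM against 1.87 for all listed genes, and together they summed to 505 ± 70.7 TPM (SD, n = 3). The highest was TMEM147, a subunit of an ER complex at the protein translocation channel, at 44.9 ± 13.5 TPM. It was followed by TMEM256, a small mitochondrial protein, at 38.7 ± 3.67 TPM. TMEM106C stood at 32.2 ± 3.13, TMEM230, a protein of secretory vesicles, at 24.1 ± 1.19, and TMEM183A at 22.3 ± 2.98 TPM. In that order TMEM147 and TMEM256 overlapped between libraries, as did TMEM256 and TMEM106C, and TMEM230 and TMEM183A. The lowest were TMEM132A at 0.268 ± 0.190, TMEM104 at 0.283 ± 0.207, TMEM136 at 0.284 ± 0.114, TMEM260 at 0.308 ± 0.0195 and TMEM100 at 0.311 ± 0.0727 TPM, which did not differ beyond their spread. The table lists genes from a mean of 0.25 TPM upward in all 3 total RNA groups, and rarer members were not analysed here.

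The first comparison asked which members differed in total RNA between cells with UPF1-1 and cells with GFP. In bulk RNA, less RNA per cell and fewer cells with the RNA cannot be told apart. Of 100 members tested, 10 rose and 5 fell, or 10% and 5%, beside 8.38% and 7.79% of all 9325 genes, so the share that rose was near the background. The median member difference was 0.03 against -0.01 for all genes. Of 14 ER members tested 6 rose and 1 fell, with a median of 0.08. With upper quartiles in place of medians set equal 3 of the 14 rose and 1 fell, and with no such step 2 rose.

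TMEM189, the desaturase that makes plasmalogen lipids, stood at 1.52, 1.63 and 3 TPM in GFP cells and at 2.76, 2.27 and 4.67 TPM with UPF1-1. The groups overlapped, but the UPF1-1 value was the higher in each replicate number. Its difference was 0.45 ± 0.06 (SE, adjusted p = 0.0033). TMEM39A, an ER protein of autophagy control, was at 0.607, 0.704 and 0.637 TPM with GFP and at 1.28, 1.11 and 1.11 TPM with UPF1-1, with no overlap. Its difference was 0.45 ± 0.07 (adjusted p = 0.0058). Smaller rises at the ER were those of TMEM214 (0.31), the ubiquitin ligase TMEM129 (0.25), the oligosaccharyltransferase subunit TMEM258 (0.22) and TMEM259, a component of ER-associated degradation (0.20).

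The ER member that fell was TMEM33. It stood at 1.33, 1.53 and 1.78 TPM with GFP and at 1.07, 1.10 and 1.07 TPM with UPF1-1, a difference of -0.46 ± 0.08 (adjusted p = 0.0067). The oligosaccharyltransferase and the ER membrane complex, which glycosylate and insert membrane proteins, hold further subunits without a TMEM symbol. Of 21 such subunits tested 5 rose and 0 fell: RPN2 (0.46), OSTC (0.32), STT3A (0.31), EMC9 (0.31) and RPN1 (0.27). None passed with no step setting medians equal, and with upper quartiles equal 4 rose and 1 fell. The shares over all genes, 8.38% and 7.79%, are those given above.

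Outside the ER, TMEM14C, a mitochondrial inner membrane protein needed for haem synthesis, also rose. It stood at 18.6, 19.4 and 18.2 TPM with GFP and at 26.7, 26 and 24.4 TPM with UPF1-1. Every UPF1-1 library lay above every GFP library, and the difference was 0.36 ± 0.05 (adjusted p = 0.0035). TMEM256 was the other mitochondrial member of 15 that rose (0.28), and TMEM230 the member of 9 Golgi and vesicle genes (0.29). TMEM170A, a protein that shapes ER and nuclear membranes, rose by 0.28. None of the 5 members listed as ciliary, 4 as nuclear envelope and 3 as lysosomal that were tested passed the threshold.

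TMEM123, also called porimin, a cell-surface protein, fell the most. It stood at 3.55, 3.68 and 2.16 TPM with GFP and at 2.51, 2.68 and 1.13 TPM with UPF1-1. The groups overlapped through replicate 3, while every replicate number was lower with UPF1-1, and the difference was -0.60 ± 0.12 (adjusted p = 0.012). TMEM19 (-0.33), TMEM56 (-0.28) and TMEM165, a Golgi cation transporter (-0.22), also fell.

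Without the replicate number none of the 100 members passed, without replicate 1, 2 or 3 the count of 15 became 5, 1 or 8, and with no step setting the medians equal only 2 passed, both higher. With upper quartiles set equal in place of medians 6 rose and 6 fell, beside 6.84% and 10.5% of all genes. Over all genes the shares without the replicate number were 0.118% higher and 0.0536% lower. Without replicate 1 they were 3.43% and 2.96%, without replicate 2 1.47% and 0.773%, and without replicate 3 7.59% and 6.87%. In those 3 fits 99, 98 and 83 members were tested. With no step setting the medians equal the shares were 2.85% and 0.375%, so all genes leaned higher there too. In the authors' deposited sleuth results no member had a q-value under 0.05, where 45 genes had. The lowest member q-value there was 0.0612, for the flippase subunit TMEM30A, which was below the level tested here.

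**Figure D1:**
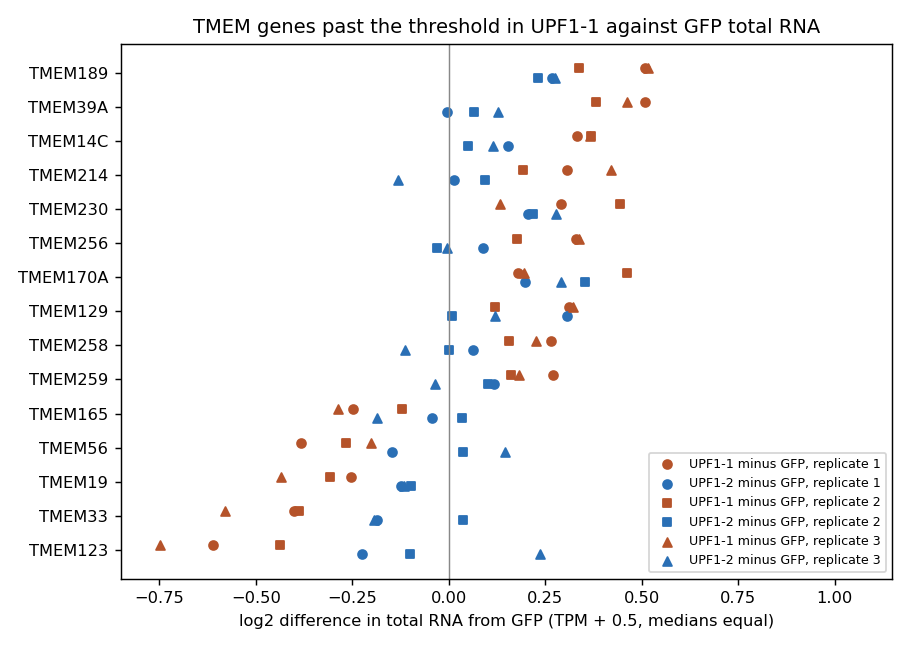
Total RNA of the 15 TMEM genes past the threshold in UPF1-1 against GFP cells. Each point is the log2 difference from GFP (TPM + 0.5, library medians equal) in 1 replicate number, for UPF1-1 (brown) and UPF1-2 (blue). TMEM14C points for UPF1-1 lie together near 0.36, and TMEM123 is lowest with UPF1-1.

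With UPF1-2 none of the 100 members differed from GFP past the threshold in limma, with 11 at an unadjusted p under 0.05. Few of all genes did, 0.279% higher and 0.0965% lower, so a count of 0 in 100 is near the background. The deposited sleuth table held 4 such genes and no member. TMEM14C stood at 19.1, 19 and 24.1 TPM with UPF1-2, and its difference from GFP was 0.11 ± 0.05 (adjusted p = 0.45). The highest members with UPF1-2 were TMEM170A at 0.28 ± 0.08 (adjusted p = 0.20), TMEM128 at 0.28 ± 0.10 (adjusted p = 0.32) and TMEM189 at 0.26 ± 0.06 (adjusted p = 0.18). TMEM121 at -0.42 and TMEM9 at -0.34 were lowest without passing. The comparisons of each isoform with GFP share the GFP libraries.

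Set directly against each other in total RNA, UPF1-1 cells were higher than UPF1-2 cells in 5 of the 100 members and lower in 4, beside 5.49% and 4.02% of all genes. TMEM9, a lysosomal protein that binds the proton pump and chloride transporters, differed most. It stood at 3.20, 3.55 and 6.64 TPM with UPF1-1 and at 1.27, 2.05 and 4.61 TPM with UPF1-2, so the groups overlapped only through replicate 3. Its difference was 0.68 (adjusted p = 0.020), while neither line differed from GFP past the threshold (0.34, adjusted p = 0.12, and -0.34, adjusted p = 0.35). TMEM39A (0.39), TMEM256 (0.26), TMEM14C (0.25) and TMEM258 (0.23) were also higher with UPF1-1.

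TMEM123 was lower with UPF1-1 than with UPF1-2, at which it stood at 2.71, 3.19 and 3.30 TPM. No library overlapped, and the difference was -0.57 (adjusted p = 0.024). TMEM33 (-0.34), TMEM56 (-0.30) and TMEM50B (-0.28) were lower as well. None of the 9 passed without the replicate number, and 2, 0 or 1 of them passed without replicate 1, 2 or 3. Without the replicate number no gene of all those tested passed either. Without replicate 1 the shares over all genes were 2.71% higher and 2.18% lower. They were 0.141% and 0.0435% without replicate 2, and 1.82% and 1.75% without replicate 3. With upper quartiles equal 4 of the 100 members were higher and 7 lower, beside 3.72% and 6.34% of all genes. In the authors' deposited sleuth results 17 genes and no member had a q-value under 0.05, and the lowest member q-value was 0.486, for TMEM9.

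Recovery with UPF1 was measured as IP over total RNA within each replicate number. Listed transcripts took a larger share of TPM in IP libraries, as given above, and nearly every member was above its total RNA as deposited. Without the step that sets medians equal, 139 of 144 members were higher with UPF1-1 and 140 with UPF1-2, and none lower, beside 95.8% and 96% of all genes higher. Of the 144, 57 reached the level tested only through their IP libraries. They stay in the counts of recovery and of the isoform difference below, which were not repeated without them. How many of all genes entered that way was not counted, so the shares set side by side describe and are not a test. With medians equal, a value above or below 0 says that a transcript stood higher or lower in IP than in total RNA, relative to the median level of each library. Recovered better or less well has that meaning from here on. The median ratio over all genes was below 0, so 0 is not the recovery of the median gene. With UPF1-1, 34 of the 144 members were recovered better and 69 less well, 23.6% and 47.9% beside 30.8% and 43.9% of all 11969 genes. With UPF1-2 the counts were 21 and 86, 14.6% and 59.7% beside 31.5% and 44.2%. The median member stood at -0.27 with UPF1-1 and -0.51 with UPF1-2, where all genes stood at -0.16 and -0.15. These counts depended on the 0.5 added to TPM. With 0.1 added, UPF1-1 recovered 46 members (31.9%) better and 59 less well, beside 33.3% and 38.4% of all genes. UPF1-2 then recovered 31 (21.5%) better and 71 less well, beside 33.4% and 39.3%. With 2 added the counts were 28 and 81 with UPF1-1, beside 30.9% and 47.7%. With UPF1-2 they were 22 and 96, beside 32.2% and 47.6%. Without the replicate number 67 members passed with UPF1-1 and 74 with UPF1-2. With UPF1-1 17 of these were recovered better and 50 less well, beside 19.8% and 32% of all genes. With UPF1-2 they were 11 and 63, beside 21.1% and 33.1%, so the counts fell among all genes too. Per library, members made up 0.335% to 0.372% of listed TPM in total RNA. In IP they made up 0.554%, 0.562% and 0.467% with UPF1-1 and 0.411%, 0.467% and 0.372% with UPF1-2.

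Both isoforms ordered the members in much the same way. Across the 144 members their values correlated at a Pearson r of 0.895, against 0.941 across all genes, as a description of points from the same libraries. Of the members, 20 were recovered better with both, 64 less well with both, and 3 better with UPF1-1 but less well with UPF1-2. No member was less well recovered with UPF1-1 and better with UPF1-2.

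**Figure D2:**
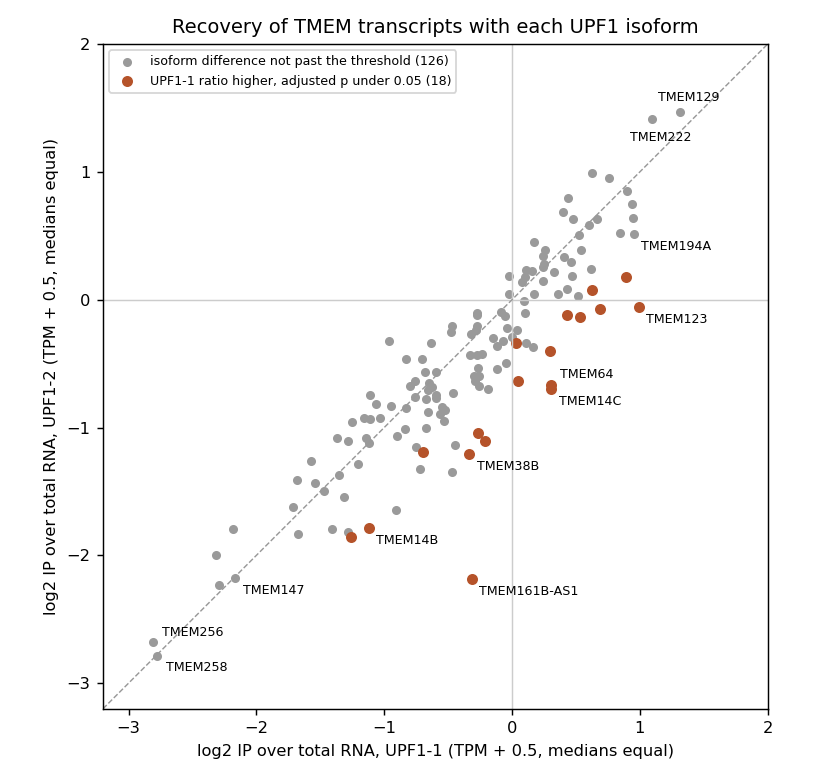
Log2 IP over total RNA (TPM + 0.5, library medians equal) with UPF1-1 on the horizontal axis and UPF1-2 on the vertical axis for 144 TMEM genes, each point a mean over 3 replicates. The dashed line marks equal recovery. The 18 brown points, where the difference between isoforms passed the threshold, all lie below it. Without equal medians nearly all points would lie above 0 on both axes.

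The best recovered member was the ER ubiquitin ligase TMEM129. It rose from 5.40, 4.97 and 8.73 TPM in total RNA to 84.4, 87.1 and 125 TPM in IP with UPF1-1. With UPF1-2 it rose from 4.30, 4.16 and 8.91 to 79.1, 84.3 and 126 TPM. Relative to the library medians that was 1.31 ± 0.13 (SE, adjusted p = 3.1e-05) and 1.47 ± 0.13 (adjusted p = 1.5e-05). TMEM222, a little-studied member, followed at 1.09 and 1.41. TMEM123 came next with UPF1-1 at 0.99, and TMEM9 with UPF1-2 at 0.99. The 4 members listed here for the nuclear envelope were recovered better with both isoforms. They were TMEM194A (NEMP1, 0.95 and 0.51), TMEM209 (0.62 and 0.24), TMEM43 (0.40 and 0.34) and TMEM201 (0.40 and 0.69). TMEM209 with UPF1-2 was close to the threshold (adjusted p = 0.048), at -0.03 in replicate 3. With upper quartiles equal 4 of the 4 passed with UPF1-1 and 3 with UPF1-2. That list leaves out TMEM120A, an ER and nuclear envelope protein, which went the other way. It was at -1.57 with UPF1-1 (adjusted p = 2.9e-06). TMEM170A, which shapes ER and nuclear membranes and is also unlisted, was at 0.29 with UPF1-1 (adjusted p = 0.030).

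Several of the least recovered members were short and abundant. TMEM256 stood at 50.6, 44.3 and 55.8 TPM in total RNA with UPF1-1 and at 34.5, 40.4 and 53.6 TPM in its IP. With UPF1-2 it stood at 34.8, 35.2 and 51.6 TPM and at 33.4, 31.2 and 44.6 TPM. In TPM the fractions overlapped, and relative to the library medians it was -2.81 ± 0.09 and -2.67 ± 0.09. TMEM258 was at -2.78 and -2.79. These 2 were among the few members not above 0 as deposited, at -0.25 and -0.15 for TMEM256 and at -0.22 and -0.26 for TMEM258 without equal medians. TMEM219, a receptor of the cell surface (-2.29 and -2.23), TMEM147 (-2.16 and -2.17) and TMEM160 (-2.32 and -2.00) were also low. They were above 0 without equal medians. TMEM184C (-2.18 and -1.79) was as low, on about 1 TPM in total RNA.

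The compartments below are read against all genes, of which UPF1-1 recovered 30.8% better and 43.9% less well, while UPF1-2 did so for 31.5% and 44.2%. Relative to the library medians, mitochondrial members had the lowest median recovery. With UPF1-1 11 of 16 were lower and 3 higher, at a median of -1.09, and with UPF1-2 14 were lower and 1 higher, at -0.78, whereas 14 and 15 of the 16 were higher without equal medians. The lower ones included TMEM126A (-1.37 and -1.08), TMEM126B (-1.11 and -0.94) and TMEM261 (-1.67 and -1.84), each a complex I assembly factor. TMEM186, of the same mitochondrial list, did not pass with UPF1-1 (-0.15, adjusted p = 0.13). Recovered better were TMEM135 (0.90 and 0.85), with both isoforms, and TMEM242 (0.47) and TMEM14C (0.31) with UPF1-1. TMEM14C was close to the threshold (adjusted p = 0.0496), at -0.015 in replicate 3. Of 11 complex I assembly factors without a TMEM symbol, UPF1-1 recovered 3 better and 7 less well, and UPF1-2 recovered 2 better and 6 less well. ER members were lower in 11 of 21 and higher in 6 with UPF1-1, and lower in 14 and higher in 3 with UPF1-2. The UPF1-1 counts at the ER were near the shares over all genes. Their 21 partners in glycosylation and insertion were lower in 14 and 15 and higher in 4 and 3.

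The remaining compartments had fewer members. Of 8 ciliary members UPF1-1 recovered 0 better and 4 less well, and UPF1-2 recovered 1 better and 5 less well, the lowest being TMEM231 (-1.54) with UPF1-1 and TMEM107 (-1.54) with UPF1-2. Of 9 members listed as lysosomal UPF1-1 recovered 3 better and 3 less well, and UPF1-2 recovered 2 better and 5 less well. TMEM251 (LYSET) was lowest in that list at -1.29 and -1.82. It is needed to sort lysosomal enzymes, which does not place the protein itself in lysosomes. Of 10 Golgi and vesicle members UPF1-1 recovered 2 better and 3 less well, UPF1-2 1 and 6, and TMEM167B was highest at 0.93 and 0.75. Of 6 cell-surface members UPF1-1 recovered 1 better and 3 less well, and UPF1-2 recovered 0 and 3. Without equal medians 20 of the 21 ER members, 5 of the 6 cell-surface members and all ciliary, lysosomal, Golgi and vesicle members were higher with both isoforms.

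Recovery followed transcript length among the members as among all genes. Relative effective length was taken from the authors' natural-log mean estimated counts and TPM, with the median gene at 1. The members had a median of 0.906, from 0.0643 for TMEM231 to 5.07 for TMEM178B. TMEM256 stood at 0.139, TMEM160 at 0.260, TMEM258 at 0.298 and TMEM147 at 0.373, while TMEM129 stood at 1.35 and TMEM194A at 2.01. Across 143 members the Spearman correlation of length with recovery was 0.492 for UPF1-1 and 0.448 for UPF1-2, against 0.471 and 0.484 across 11867 genes. In the 47 shortest members the median recovery was -0.83 with UPF1-1 and -0.93 with UPF1-2, and in the 48 longest it was 0.13 and -0.09. These relations are given across genes, which share libraries, and genes are not independent replicates. Length comes from the same quantification as TPM, and its part in recovery was not tested.

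**Figure D3:**
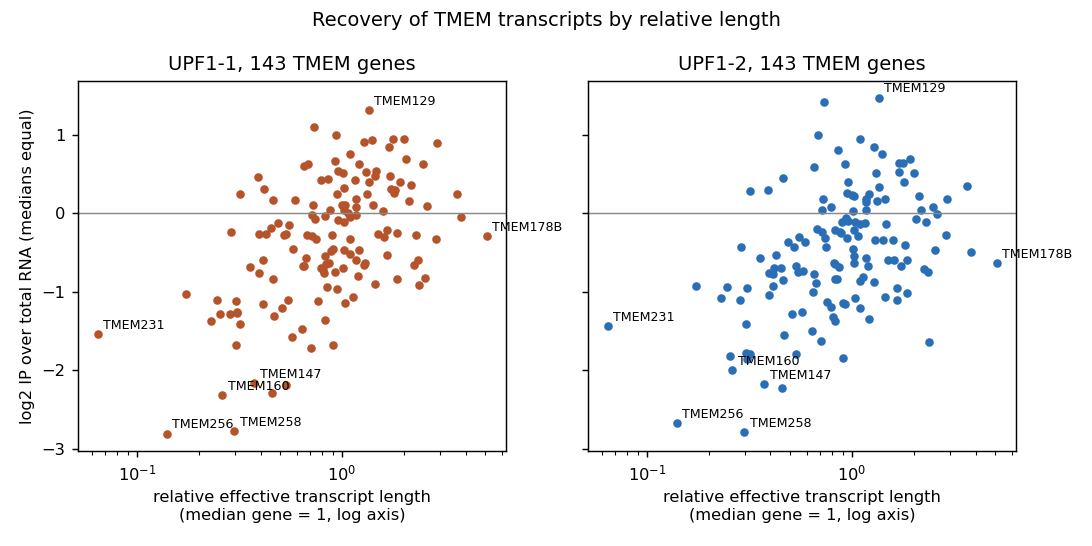
Log2 IP over total RNA (library medians equal) against relative effective transcript length (median gene = 1, log axis) for 143 TMEM genes with UPF1-1 (left) and UPF1-2 (right). Short members such as TMEM256 and TMEM258 lie lowest in both panels, and the Spearman correlation is 0.492 and 0.448.

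Recovery differed between the isoforms in 1 direction only among the members past the threshold. In the test of the difference itself, UPF1-1 minus UPF1-2, 18 of 144 members were higher and 0 lower, with 44 at an unadjusted p under 0.05. That is 12.5% higher beside 4.43% of all genes, and 0% lower beside 6.27%. The 18 include TMEM161B-AS1, which reached the level tested only through its UPF1-1 IP libraries. The median member difference was 0.11 against -0.04 for all genes, and 63.9% of members lay above 0 against 44.7% of genes. By replicate number the median member difference was 0.20, 0.17 and 0.04, beside -0.01, -0.02 and -0.10 for all genes. All 3 UPF1-1 ratios exceeded all 3 UPF1-2 ratios in 42 members (29.2%, and 15.7% of all genes). The reverse held for 15 members (10.4%, and 19.5% of all genes).

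**Figure D4:**
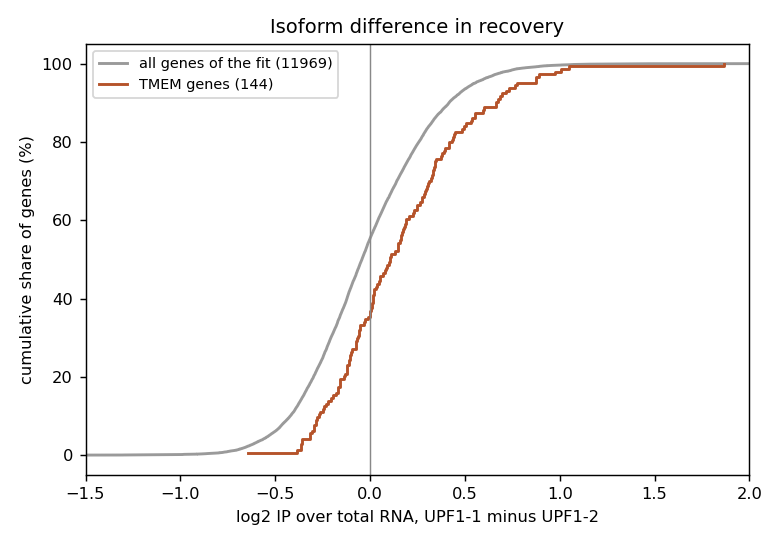
Cumulative share of genes by log2 IP over total RNA, UPF1-1 minus UPF1-2, for 144 TMEM genes (brown) and all 11969 genes of the fit (grey). The members' curve lies to the right, with a median of 0.11 against -0.04.

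TMEM14C was the most abundant of the 18 in IP. Its IP values were 198, 198 and 176 TPM with UPF1-1 and 78.0, 78.0 and 67.9 TPM with UPF1-2, far apart, while total RNA was 26.7, 26 and 24.4 against 19.1, 19 and 24.1 TPM. Its difference in recovery was 1.01 ± 0.18 (SE, adjusted p = 0.018). The IP level differed by 1.28 and total RNA by 0.27. Its paralogs followed: TMEM14B differed by 0.66 (adjusted p = 0.044) and TMEM14A by 0.59 (adjusted p = 0.033). Whether these paralogs share reads was not tested, so their values are uncertain and are not counted as independent of each other. The same holds for TMEM170A (0.69) and TMEM170B (0.72).

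TMEM123 stood at 29.8, 29.1 and 27.8 TPM in IP with UPF1-1 and at 20.2, 21.1 and 16.7 TPM with UPF1-2. Its total RNA went the other way, and its difference in recovery of 1.05 ± 0.15 (adjusted p = 0.015) came with a difference of 0.50 in IP and -0.55 in total RNA. The same total RNA libraries enter that difference and the total RNA comparison of the isoforms, so these are not separate results. TMEM33 (0.56) and TMEM56 (0.77) were the others of the 18 that were also lower in total RNA with UPF1-1.

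Of the 21 ER members 4 passed, where 12.5% of all members did, and they were TMEM64, TMEM38B, TMEM33 and TMEM66. TMEM64, a regulator of the ER calcium pump, was at 19.5, 19.6 and 16.7 TPM in IP with UPF1-1 and at 10.0, 10.5 and 8.75 TPM with UPF1-2. No library overlapped, and the difference in recovery was 0.97 ± 0.14 (adjusted p = 0.015). TMEM38B, an ER cation channel, was at 13.2, 11.9 and 10.0 against 6.45, 7.45 and 4.50 TPM in IP, a difference of 0.88 (adjusted p = 0.022). TMEM66, a regulator of store-operated calcium entry, differed by 0.50 (adjusted p = 0.044). Golgi and vesicle members passed in 1 of 10 (TMEM167A, 0.67), mitochondrial members in 3 of 16 (TMEM14C, TMEM14A and TMEM65, 0.68) and cell-surface members in 1 of 6 (TMEM123). No member listed as ciliary, lysosomal or nuclear envelope passed. Of 61 partner genes without a TMEM symbol 5 were higher and 2 lower, or 8.2% and 3.28%, beside 4.43% and 6.27% of all genes. These shares leaned the same way as those of the members. The ER partners had a median of 0.10 with 18 of 21 above 0, and lysosomal partners 0.16 with 12 of 17. Partners at the ciliary transition zone had a median of -0.17 with 3 of 12 above 0. Complex I assembly factors had -0.05 with 3 of 11. OSTC (0.66), MMGT1 (0.64), ATP6AP2 (0.51), NDUFAF4 (0.48) and ATP6V0A2 (0.44) were higher with UPF1-1, and FOXRED1 (-0.56) and B9D1 (-0.52) lower.

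The noncoding TMEM161B-AS1 had the largest fitted difference, 1.87 ± 0.36 (adjusted p = 0.022). It is the 1 member of the 144 that reached the level tested only through its UPF1-1 IP libraries, where it is high. Its call is among the 18 but is not counted as support. It was at 3.75, 3.13 and 3.88 TPM in IP with UPF1-1 and at 1.06, 1.48 and 0.731 TPM with UPF1-2. Total RNA was 0.551, 0 and 0.705 TPM with UPF1-1, with a listed 0 in replicate 2, and 0.604, 0.783 and 0.806 TPM with UPF1-2. In replicates 1 and 3, where total RNA was above 0, the difference was 1.71 and 1.55. Its mean estimated count of 18.1 was among the lowest of the members, and whether counting used strand is not given in the sources used here. TMEM161B, its coding neighbour, differed by 0.18 (adjusted p = 0.53).

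The other 4 members past the threshold were TMEM136 (0.89), TMEM128 (0.78), TMEM241 (0.55) and TMEM248 (0.37). Of the 18, TMEM136, TMEM241, TMEM56 and TMEM161B-AS1 reached the level tested only through IP libraries, as did 57 of the 144 members. In all 18 the IP level itself was higher with UPF1-1, by 0.24 to 1.31, as it was in 101 of the 144 members. Total RNA was lower in 13 of the 18. With UPF1-1 9 of the 18 were recovered better and 4 less well. With UPF1-2 none was recovered better and 12 less well. Of all 144 members these counts were 34 and 69 with UPF1-1, and 21 and 86 with UPF1-2. The 18 were picked for a higher UPF1-1 ratio, so a shift of this kind was built in. The lowest member difference was that of TMEM102 at -0.64 (adjusted p = 0.076).

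None of the 18 passed without the replicate number, without equal medians, or when replicate 1 or 2 was left out. In those settings no gene of all those tested passed, so the loss was not particular to the members. With a pseudocount of 2, 3 members were higher, beside 0.827% of all genes higher and 1.68% lower. Without replicate 3 there were 19, beside 4.45% and 4.95%, and with upper quartiles equal 27, beside 7.07% and 3.83%. None of these settings placed a member lower.

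**Figure D5:**
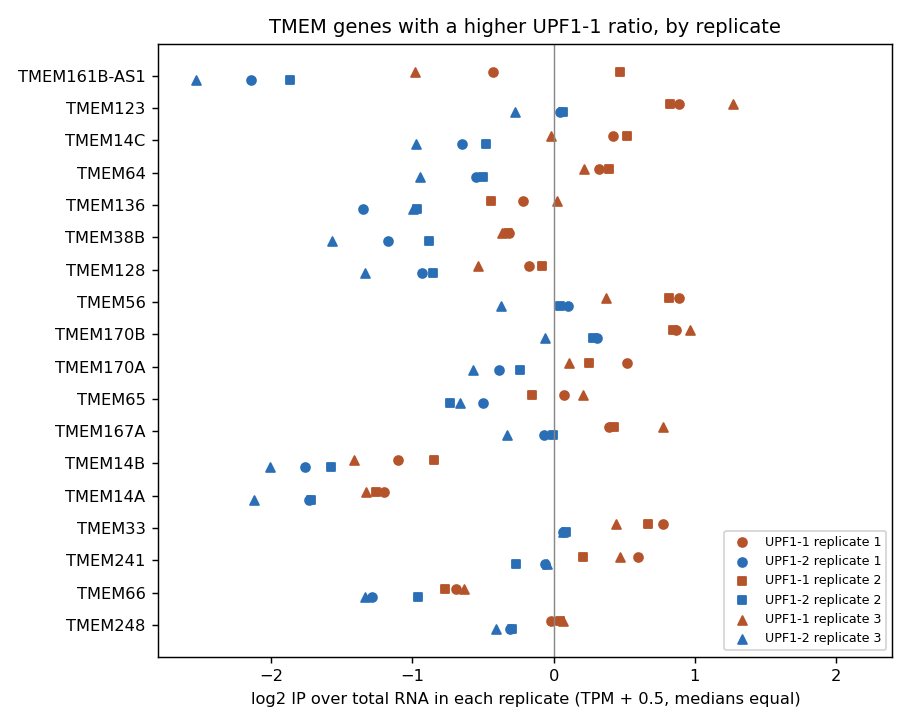
Log2 IP over total RNA (TPM + 0.5, library medians equal) in each replicate for the 18 TMEM genes with a higher ratio with UPF1-1, with UPF1-1 in brown and UPF1-2 in blue. In each gene the 3 UPF1-1 points lie above the 3 UPF1-2 points.

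Promoter sequence was available for 116 members, 250 bases before to 50 bases after the gene start (RefSeq, GRCh38.p14). Since 6 of the 10 members that rose in total RNA were ER genes, or 3 of 6 with upper quartiles equal, promoters were searched on both strands for the ER stress response element, CCAAT, any 9 bases and CCACG, which the ER stress factor ATF6 binds with NF-Y. Only TMEM120A held it, as did 23 of 27305 promoters (0.0842%). TMEM120A encodes an ER and nuclear envelope membrane protein of fat cell differentiation. It stood at 0.380, 0.444 and 1.27 TPM with GFP and at 0.691, 0.681 and 1.93 TPM with UPF1-1, higher in each replicate number, but its difference of 0.32 did not pass (adjusted p = 0.063). Its promoter is shown because it is the single match, with the element in capitals from -103 to -85, read on the opposite strand, at chr7:75994546-75994845 on the minus strand.
TMEM120A: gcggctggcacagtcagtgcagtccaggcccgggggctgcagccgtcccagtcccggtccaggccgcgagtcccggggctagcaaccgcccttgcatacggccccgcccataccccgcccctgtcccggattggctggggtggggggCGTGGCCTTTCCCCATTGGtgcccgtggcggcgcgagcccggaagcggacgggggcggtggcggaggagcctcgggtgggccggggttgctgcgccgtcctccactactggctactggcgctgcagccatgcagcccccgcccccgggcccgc
A match is a description of letters and not a binding site. Searched the same way, ERSE-II (ATTGG, any base, CCACG) and UPRE (TGACGTGG) were in none of the 116, and in 0.0623% and 0.758% of all promoters. CARE (TGATGNAA) was in TMEM102 alone, and in 3.83% of all promoters.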

How the data were processed

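RNA-seq of 9 total RNA and 6 IP libraries was analysed from 1 deposited table, which gives 1 transcript per gene. Per the file headers its library values are TPM, and the authors' table also holds sleuth p-values and q-values, effects on the natural log (ln) scale and mean ln estimated counts. Ribosomal RNA was depleted before library preparation, per the labels' protocols. Cutadapt, kallisto, sleuth and the build hg19 come from the submitters' processing notes, which give no versions. Read depth per library is not given in the sources used here. Of the 15 library columns all were used.

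Log2 of TPM plus 0.5 (the pseudocount) was taken for genes that reached 1 TPM in 3 or more of the fitted libraries, and library medians were set equal. Limma 3.58.1 (R 4.3.3) was fitted with a trend and a block, which was the replicate number for total RNA (9 libraries) and isoform by number for IP (12 libraries). 2-sided p-values were adjusted by Benjamini-Hochberg over all genes tested, at a threshold of 0.05, and 46 members in total RNA and 2 in IP (TMEM100 and TMEM45A) were not tested. Same-numbered libraries correlated at r of 0.567 to 0.953 after group means were removed, while replicates 1 and 2 of different number correlated at 0.585 to 0.802, so replicate 3 stands apart and replicates 1 and 2 are not shown to be distinct pairs. The authors' deposited ratios of IP to total RNA also pair libraries by number. The fit was tested on simulated data.

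The members, the compartment lists and the fit were chosen with earlier results of these data known. Named were, per comparison, up to 8 members with the largest difference in each direction past the threshold, at 2 TPM or more and with 1 direction in all replicates, the 5 highest and lowest, the extremes of each list and all members where a count was 5 or fewer. Others were chosen after their values were seen. Relative length was the ln mean estimated count minus the mean ln TPM, for genes with an estimated count of at least 10, and was chosen after seeing the table. A planned count of hydrophobic segments in the proteins was not run.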

Additional observations from a re-analysis of the deposited data

Results flagged for a closer look

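In 18 members IP over total RNA differed between the isoforms by the test of the difference itself, UPF1-1 minus UPF1-2 on the log2 scale with library medians equal (limma, adjusted p from 0.015 to 0.049). All were higher with UPF1-1 in every replicate number. TMEM161B-AS1 reached the level tested only through its UPF1-1 IP libraries, so its call is not counted as support. TMEM136, TMEM241 and TMEM56 reached it only through IP libraries. At the ER the differences were 0.97 for TMEM64, 0.88 for TMEM38B, 0.56 for TMEM33 and 0.50 for TMEM66. In mitochondria they were 1.01 for TMEM14C, 0.68 for TMEM65 and 0.59 for TMEM14A. TMEM123 at the cell surface differed by 1.05 and TMEM167A in the secretory pathway by 0.67. Among members in no compartment list they were 1.87 for the noncoding TMEM161B-AS1, 0.89 for TMEM136, 0.78 for TMEM128, 0.77 for TMEM56, 0.72 for TMEM170B, 0.69 for TMEM170A, 0.66 for TMEM14B, 0.55 for TMEM241 and 0.37 for TMEM248.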

How the results depend on the processing

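With the replicate block and equal medians, 15 members passed in UPF1-1 against GFP, 0 in UPF1-2 against GFP, 9 in UPF1-1 against UPF1-2 total RNA, 103 and 107 in IP over total RNA with UPF1-1 and UPF1-2, and 18 in the isoform difference. Without the replicate block these were 0, 0, 0, 67, 74 and 0. With the block and no centring they were 2, 0, 2, 139, 140 and 0, and with neither 0, 0, 0, 135, 136 and 0. A filter at 5 TPM left 23 members tested in total RNA and 104 in IP. In UPF1-1 against GFP 6 (26.1%) were higher and 0 lower, beside 11.4% and 7.49% of all genes. In UPF1-1 against UPF1-2 total RNA these were 3 (13%) and 0, beside 7.39% and 4.58%. In the isoform difference they were 23 (22.1%) and 0, beside 8.24% and 8.04%. A pseudocount of 2 gave 3 in the isoform difference and upper quartiles set equal gave 27, with the shares over all genes given above. Leaving out 1 replicate number gave 1 to 8, 0, 0 to 3, 87 to 105, 90 to 116 and 0 to 19. UPF1-2 against GFP gave 0 under all 11 alternatives. Where the isoform difference gave 0 members, no gene of all those tested passed either. Without centring, with or without the block, low recovery turned above 0 with UPF1-1 for TMEM160 (0.24), TMEM219 (0.27), TMEM147 (0.40), TMEM205 (0.88), TMEM261 (0.89) and TMEM60 (1.16). With UPF1-2 it did so for TMEM219 (0.30), TMEM147 (0.35), TMEM160 (0.53), TMEM14A (0.67), TMEM261 (0.69) and TMEM251 (0.71). These are the members the naming rule gave. The shift is the same for every gene, so the other low members named in the report also lay above 0 without centring, except TMEM256 and TMEM258. The planned protein features were not run. Read depth limits low members, whose mean estimated counts went down to 13.2, against a member median of 462.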
